A study of Mus musculus with 4 samples.

Results

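The genes described are 10 core genes of the Notch pathway, chosen by name from the 31828 genes of the deposited expression table. They are the receptors Notch1, Notch2 and Notch3, the ligands Jag1, Jag2 and Dll1, and the target genes Hes1, Hey1, Heyl and Nrarp. The measurement was RNA-seq of AML12 cells (alpha mouse liver 12), an immortalized line of mouse hepatocytes, which were kept in dishes (2D) or in Matrigel, a gel of basement membrane proteins that surrounds the cells (3D), with 2 libraries per culture. The 2D cells were replated in dishes and received 1 mM hydroxyurea, an inhibitor of DNA replication, at 50% confluence for 24 h. The 3D cells grew in Matrigel for 24 h and then received 1 mM hydroxyurea for 36 h. Both cultures shared the cell line and a medium with 10% fetal calf serum, 40 ng/mL dexamethasone and a supplement of insulin, transferrin and selenium. The growth form, the point at which hydroxyurea was added and the time in it differ together, so their contributions cannot be told apart. The study's methods give the hydroxyurea treatment under cell culture and do not repeat it where the RNA libraries are described. The labels do not say whether the libraries of a culture came from separate cultures, and p-values then measure only the spread between these libraries, which may be technical.

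Notch signalling passes between touching cells. A Jagged or Delta-like ligand on the surface of a neighbour binds a Notch receptor, the receptor is cut by an ADAM protease and then by the gamma-secretase complex, and the freed intracellular domain enters the nucleus, where it joins the DNA-binding protein RBPJ and a Mastermind coactivator to switch on genes such as those of the HES and HEY repressors. In the liver the pathway is known above all for the formation of bile ducts, in which Jag1 and Notch2 are required, and for its activity in hepatocytes that take on biliary features.

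RefSeq promoter windows, which run from 250 bases before to 50 bases after an annotated transcription start on GRCm38.p6, matched 7 of the 10 genes and gave 8 windows, since Dll1 has 2. Hes1, Hey1 and Heyl had no entry in the table. The 250 bases before the start are printed 5′ to 3′ on the strand of the gene for the 4 genes with a window whose level rose in 3D, as reference sequence for the genes on which the results turn. Capitals mark the motifs that HES and HEY repressors are known to bind, namely the N box (CACNAG) and the class C site (CACGNG), each searched on both strands. The last CAC of the Notch1 stretch begins an N box that runs over the start.
Notch1 (chr2:26503823-26504072, minus strand): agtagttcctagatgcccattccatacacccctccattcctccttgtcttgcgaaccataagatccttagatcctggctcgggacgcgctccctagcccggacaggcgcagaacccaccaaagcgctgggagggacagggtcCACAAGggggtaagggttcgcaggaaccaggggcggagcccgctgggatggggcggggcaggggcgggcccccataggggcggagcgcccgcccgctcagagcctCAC
Notch3 (chr17:32166891-32167140, minus strand): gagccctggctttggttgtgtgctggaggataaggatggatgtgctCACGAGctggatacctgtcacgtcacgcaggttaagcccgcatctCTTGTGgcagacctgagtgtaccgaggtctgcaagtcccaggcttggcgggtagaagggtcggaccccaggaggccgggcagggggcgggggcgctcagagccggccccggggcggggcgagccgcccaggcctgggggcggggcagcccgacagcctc
Jag1 (chr2:137116521-137116770, minus strand): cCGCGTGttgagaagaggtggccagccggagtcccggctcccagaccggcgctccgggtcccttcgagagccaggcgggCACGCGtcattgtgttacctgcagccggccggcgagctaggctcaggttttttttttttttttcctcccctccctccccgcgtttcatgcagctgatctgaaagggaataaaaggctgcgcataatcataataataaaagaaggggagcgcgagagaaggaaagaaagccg
Nrarp (chr2:25180508-25180757, plus strand): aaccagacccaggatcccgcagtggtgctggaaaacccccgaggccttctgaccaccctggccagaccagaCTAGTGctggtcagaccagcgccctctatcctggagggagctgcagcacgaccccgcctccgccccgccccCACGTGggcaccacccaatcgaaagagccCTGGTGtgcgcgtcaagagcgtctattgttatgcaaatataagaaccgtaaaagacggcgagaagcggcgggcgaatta

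In Notch1 the word CACAAG began at base -108 from the start, and CACTAG at -3 overlapped the reverse-strand match CTAGTG at -1. The Notch3 stretch held CACGAG at -204, which matches both motifs, and CTTGTG at -159. In Jag1 the class C words CGCGTG and CACGCG began at -249 and -171. The Nrarp stretch held the N box words CTAGTG at -179 and CTGGTG at -79. It also held the palindrome CACGTG at -108, which matches the pattern CACGNG on both strands. Jag2, the gene whose level fell, had its only match after the start, CACGCG at 19. Matches before the start were not limited to genes that rose. Notch2, which did not pass the test, had CTAGTG at -247 and CACGCG at -42. Dll1, too low to be tested, had CACGGG at -105 in its first window and CACGCG at -68 in its second. The N box was present in 5 of the 8 windows against 42.5% of all 32851 promoter windows, and the pattern CACGNG in 7 of 8 against 27.5%. The 8 windows held 15 to 63 CpG dinucleotides each against a median of 7 over all windows, and 55.7% to 86.0% G and C against a median of 52.7%, so they are compared with sequences of another base composition, and the class C site itself contains CG. The RBPJ core TGGGAA, also searched on both strands, was found in 0 of the 8 windows and in 25.6% of all windows. Its longer form GTGGGAA, which contains the core, was in 6.38% of all windows. Nrarp was the only target gene among the 8 windows, so Hes1, Hey1 and Heyl were not searched. These matches describe letters in short windows, and no binding was measured. The RefSeq start of Notch1 lies 12841 bases inside the 5′ end of the gene as deposited, so its window does not cover that end.

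The deposited unit, TPM, expresses abundance per transcript length as a part of the library total, and the depth of sequencing behind it is unknown. The number of genes at 1 TPM or more was 13891 to 14256 per library, and the correlation of log2(TPM + 1) across genes was 0.991 between the 2D libraries, 0.992 between the 3D libraries and 0.951 to 0.952 between the cultures. Of 6 hepatocyte markers, 5 were tested and all 5 rose, with a summed level of 84.6 to 86.2 TPM in 2D and 489 to 503 TPM in 3D, and the iron carrier Trf and the transcription factor Hnf4a were the highest. Alb, which encodes albumin, was at only 0.819 and 1.20 TPM in the 2D libraries, and Serpina1b was listed at 0 in both. Of 6 biliary markers, 5 were tested, Spp1 and Sox9 rose and the keratins Krt19 and Krt7 fell, with a summed level of 2356 to 2460 TPM in 2D and 2322 to 2411 TPM in 3D, while Epcam was listed at 0 in 3 of the 4 libraries. Of 6 endothelial markers only Vwf was tested (summed 1.91 to 2.67 TPM in 2D and 6.49 to 6.67 in 3D), and Pecam1, Cdh5, Kdr, Tek and Tie1 were each under 1 TPM in every library. The mesenchymal list had 2 of 6 members tested, Vim and Des, and both fell (summed 703 to 749 TPM in 2D and 293 to 304 in 3D), with Col3a1 listed at 0 in 3 libraries. The immune list had 2 of 6 members tested, Cd68, which did not pass the test, and Cd3e, which fell (summed 21.0 to 22.1 TPM in 2D and 23.5 to 27.6 in 3D), with Adgre1 listed at 0 in 3 libraries. Cd3e reached the mean of 1 TPM needed for the test only through the 2D libraries. It was at 2.00 and 1.72 TPM in 2D and at 0.496 and 0.490 TPM in 3D. For these markers, rose and fell mean a limma adjusted p under 0.05. By that threshold 23.4% of all 14116 tested genes were higher and 27.1% lower in 3D. Whether the marker shifts have a part in the Notch results was not tested.

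The question of the comparison was whether expression differs between 2D and 3D culture. Among the 10 Notch genes, 7 had a mean of at least 1 TPM and were tested with limma on log2(TPM + 1), and all 7 were at 1 TPM or more in every library. Of these 7, 5 rose in 3D (Notch1, Notch3, Jag1, Hes1 and Nrarp), 1 fell (Jag2) and 1 did not pass an adjusted p of 0.05 (Notch2). Among all 14116 tested genes 50.5% passed the same threshold, 23.4% as higher and 27.1% as lower in 3D. The 3D libraries lay wholly above the 2D libraries for 6 of the 7 genes and wholly below for 1, and the libraries did not overlap for 77.5% of all tested genes. The median log2 fold change, 3D over 2D, was 0.60 over the 7 genes and -0.04 over all tested genes. Dll1, Hey1 and Heyl were too low to be tested, and over all 10 genes with no filter the median was 0.21. In bulk RNA, fewer cells that express a gene and less of its RNA per cell cannot be told apart.

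**Figure D1:**
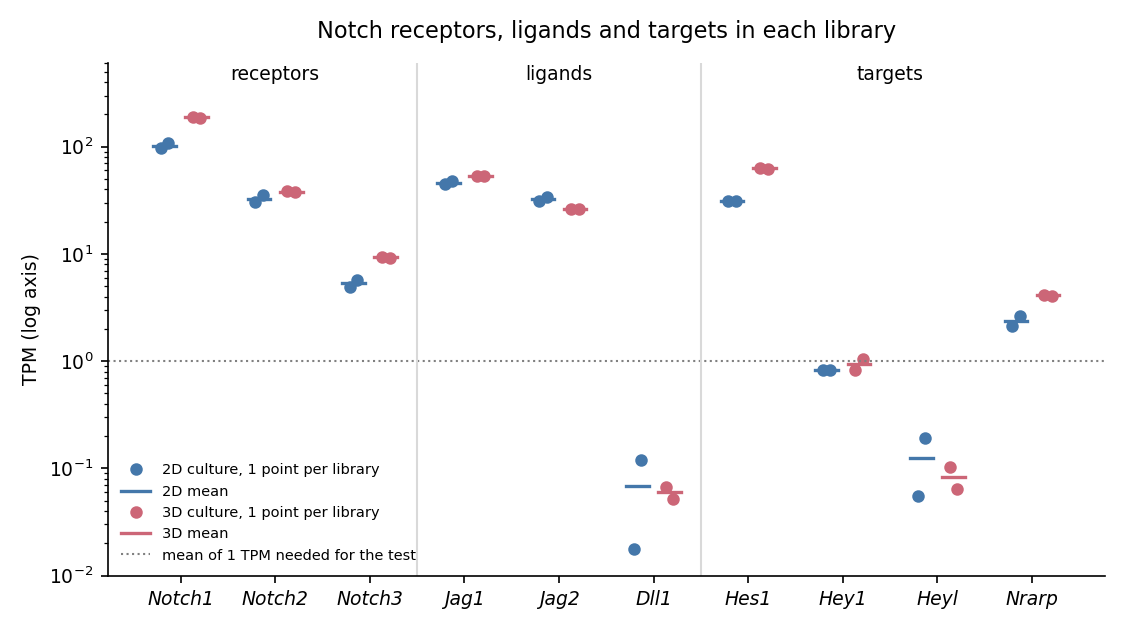
TPM of the 10 Notch genes on a log axis, with 1 point for each of the 2 libraries of 2D and of 3D culture and a bar at the mean of each culture. Notch1 is the highest in both cultures (means of 101.8 and 187 TPM), Hes1 moves past Jag1 in 3D, and the points of Dll1, Hey1 and Heyl overlap between cultures.

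Notch1, the most abundant receptor, was at 96.3 and 107 TPM in 2D and at 191 and 184 TPM in 3D. Both 3D libraries were far above both 2D libraries. Its mean rose from 101.8 ± 7.84 to 187 ± 4.96 TPM (SD, n = 2 each), 1.84-fold, with a log2 fold change of 0.88 (SE 0.07, 95% interval 0.70 to 1.05, limma adjusted p = 0.000993). This fold change stood at percentile 94.2 of all tested genes, and the mean level at percentile 91.3. The deposited gene (ENSMUSG00000026923) lies on the minus strand of chromosome 2, 26457903 to 26516663 on GRCm38. It overlaps the opposite-strand transcript 0610009E02Rik, which fell from 5.94 and 3.57 TPM to 2.00 and 1.91 TPM (log2 fold change -0.93, limma adjusted p = 0.0247), and Gm13568 and Mir6996, which were at 1.06 TPM or less.

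Notch3 was the lowest of the 3 receptors. It was at 4.89 and 5.76 TPM in 2D and at 9.43 and 9.20 TPM in 3D, without overlap. The mean rose from 5.32 ± 0.616 to 9.31 ± 0.162 TPM, with a log2 fold change of 0.71 (SE 0.10, 95% interval 0.43 to 0.98, limma adjusted p = 0.00588). The gene (ENSMUSG00000038146) lies on the minus strand of chromosome 17, 32120820 to 32166880, and the lincRNA Gm17276 that overlaps it on the other strand was under 1 TPM in every library.

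Notch2, the receptor tied to bile duct formation, was at 30.3 and 35.3 TPM in 2D and at 38.2 and 37.8 TPM in 3D. The libraries did not overlap, but the 2D libraries lay farther from each other than the second of them lay from 3D. The means were 32.8 ± 3.51 and 38.0 ± 0.285 TPM, and the log2 fold change of 0.21 (SE 0.09, 95% interval -0.02 to 0.44) did not pass the test (limma adjusted p = 0.104). Without 2D replicate 2 it was 0.32 with a limma adjusted p of 0.0286, and without 2D replicate 1 it was 0.10 with a limma adjusted p of 0.252. Notch2 (ENSMUSG00000027878) lies on the plus strand of chromosome 3, 98013527 to 98150361, and contains Gm42819 and Gm42820 on the same strand, both under 1 TPM.

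The make-up of the receptor transcripts was compared within libraries. Notch1 made up 73.2% and 72.3% of the summed TPM of the 3 receptors in 2D, against 80.0% and 79.6% in 3D, while Notch2 made up 23.1% and 23.8% in 2D and 16.0% and 16.4% in 3D. The share of Notch3 stayed small, at 3.72% and 3.88% in 2D and 3.95% and 3.98% in 3D. The ratio of Notch1 to Notch2 was 3.18 and 3.04 in 2D, against 5.00 and 4.86 in 3D, so that every 3D library lay above every 2D library, and the exact two-sided permutation p of 0.333 is the smallest that 2 libraries against 2 can give. The summed TPM of the 3 receptors was 139.9 ± 12.0 in 2D and 235 ± 5.41 in 3D. The share gained by Notch1 was 7.05 percentage points, and 9.41 when Notch4 was counted among the receptors, a set chosen after the data were seen.

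Jag1 and Jag2, the 2 Jagged ligands, moved in opposite directions. Jag1 was at 44.8 and 47.5 TPM in 2D and at 53.7 TPM in both 3D libraries. Its libraries did not overlap, and the mean rose from 46.1 ± 1.88 to 53.7 ± 0.0208 TPM, with a log2 fold change of 0.22 (SE 0.05, 95% interval 0.07 to 0.36, limma adjusted p = 0.0282). The call was lost when any of 3 libraries was left out, as the limma adjusted p was 0.0808 without 2D replicate 1, 0.116 without 3D replicate 1 and 0.116 without 3D replicate 2. Jag1 (ENSMUSG00000027276) lies on the minus strand of chromosome 2, 137081456 to 137116644.

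Jag2 was at 31.0 and 33.6 TPM in 2D and at 26.1 TPM in both 3D libraries, which lay below both 2D libraries. The mean fell from 32.3 ± 1.87 to 26.1 ± 0.0270 TPM, with a log2 fold change of -0.30 (SE 0.07, 95% interval -0.47 to -0.12, limma adjusted p = 0.0199). The call was lost in the same way, with a limma adjusted p of 0.0612 without 2D replicate 2, 0.0848 without 3D replicate 1 and 0.0857 without 3D replicate 2. Jag2 (ENSMUSG00000002799) lies on the minus strand of chromosome 12, 112907819 to 112929776, and contains the microRNA gene Mir6941 on the same strand, which was listed at 1.50 and 1.04 TPM in 2D and at 1.17 and 0 TPM in 3D.

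Dll1, a Delta-like ligand, was at 0.0176 and 0.120 TPM in 2D and at 0.0678 and 0.0521 TPM in 3D. The libraries overlapped and every value was far below 1 TPM, so Dll1 was not tested. Its gene (ENSMUSG00000014773) lies on the minus strand of chromosome 17, 15367354 to 15376872, and overlaps A930024N18Rik, which was listed at 0 in 3 libraries.

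The ratio of Jag1 to Jag2 was 1.45 and 1.41 in 2D, against 2.06 in each 3D library (exact two-sided permutation p = 0.333, the smallest possible). Jag1 made up 58.8% ± 0.467 of the summed TPM of the 3 ligands in 2D and 67.3% ± 0.0236 in 3D (SD, n = 2 each), and Jag2 made up 41.1% ± 0.379 and 32.7% ± 0.00973. The sum itself was 78.5 ± 3.82 TPM in 2D, against 79.9 ± 0.0589 TPM in 3D, a difference within the spread of the 2D libraries. Counting Dll3 and Dll4 as well, a set chosen after the data were seen, the gain of Jag1 was 8.58 percentage points against 8.49 without them.

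**Figure D2:**
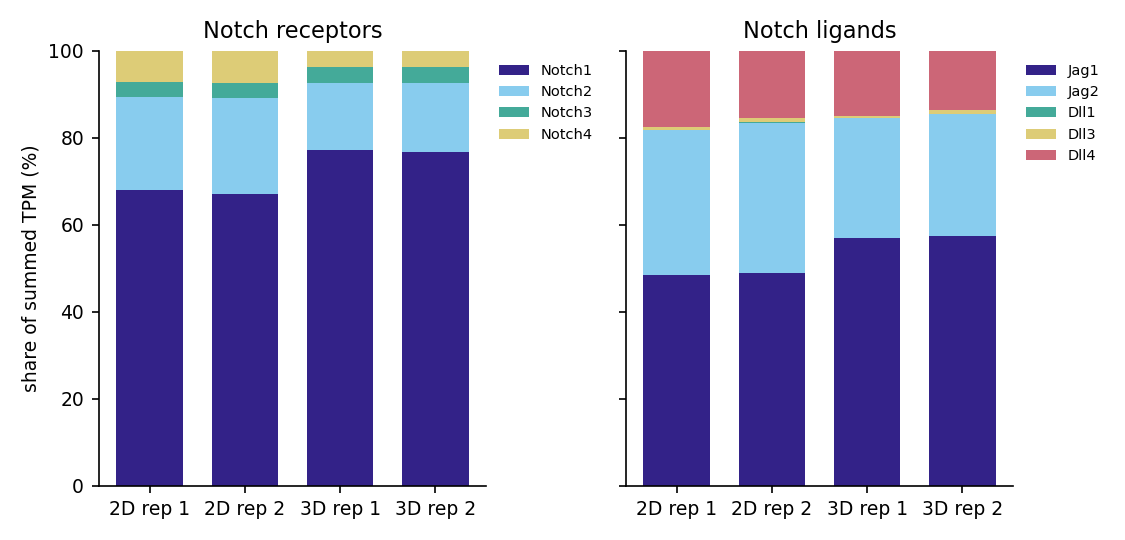
Share in percent of each receptor in the summed TPM of Notch1 to Notch4 (left) and of each ligand in that of Jag1, Jag2, Dll1, Dll3 and Dll4 (right), with 1 stacked bar for each of the 4 libraries. With these wider sets Notch1 takes 67.0% to 68.0% of the receptor TPM in 2D and 76.7% to 77.1% in 3D, and Jag1 takes 48.4% to 48.8% of the ligand TPM in 2D and 56.9% to 57.5% in 3D.

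Hes1, a repressor of the basic helix-loop-helix family and a widely used readout of the pathway, was at 30.9 and 30.8 TPM in 2D and at 63.9 and 61.5 TPM in 3D. The 2D libraries were level with each other, and both 3D libraries were well above them. The mean rose from 30.9 ± 0.00841 to 62.7 ± 1.66 TPM, 2.03-fold, with a log2 fold change of 1.00 (SE 0.05, 95% interval 0.86 to 1.13, limma adjusted p = 0.000465), at percentile 95.5 of all tested genes. Hes1 (ENSMUSG00000022528) lies on the plus strand of chromosome 16, 30064384 to 30067796.

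Nrarp, a small ankyrin-repeat protein that limits Notch signalling and is itself a target, was at 2.13 and 2.64 TPM in 2D and at 4.17 and 4.07 TPM in 3D. The libraries did not overlap. The mean rose from 2.38 ± 0.365 to 4.12 ± 0.0700 TPM, with a log2 fold change of 0.60 (SE 0.12, 95% interval 0.27 to 0.93, limma adjusted p = 0.0162). This call too was lost when 1 of 3 libraries was left out, with a limma adjusted p of 0.0526 without 2D replicate 1, 0.0756 without 3D replicate 1 and 0.0680 without 3D replicate 2. Nrarp (ENSMUSG00000078202) lies on the plus strand of chromosome 2, 25180758 to 25183339, and the antisense gene Gm38287 within it was at 0.0762 TPM or less.

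Hey1 and Heyl, repressors related to Hes1, stayed low in both cultures. Hey1 was at 0.821 and 0.831 TPM in 2D and at 0.823 and 1.04 TPM in 3D, and Heyl was at 0.0555 and 0.192 TPM in 2D and at 0.104 and 0.0638 TPM in 3D. Both sets of libraries overlapped, and neither gene reached the mean of 1 TPM needed for the test. With no filter the log2 fold changes were 0.08 for Hey1 (limma adjusted p = 0.702) and -0.05 for Heyl (limma adjusted p = 0.736). Hey1 (ENSMUSG00000040289) lies on the minus strand of chromosome 3, 8663359 to 8667256, and Heyl (ENSMUSG00000032744) on the plus strand of chromosome 4, 123233556 to 123249875. The ratio of Hes1 to Hey1 was 37.6 and 37.1 in 2D and 77.6 and 59.0 in 3D, and Hes1 made up 92.4% ± 1.32 and 94.5% ± 0.0442 of the summed TPM of the HES and HEY genes listed, which also included Hes5, Hes7, Hey2 and Heyl.

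**Figure D3:**
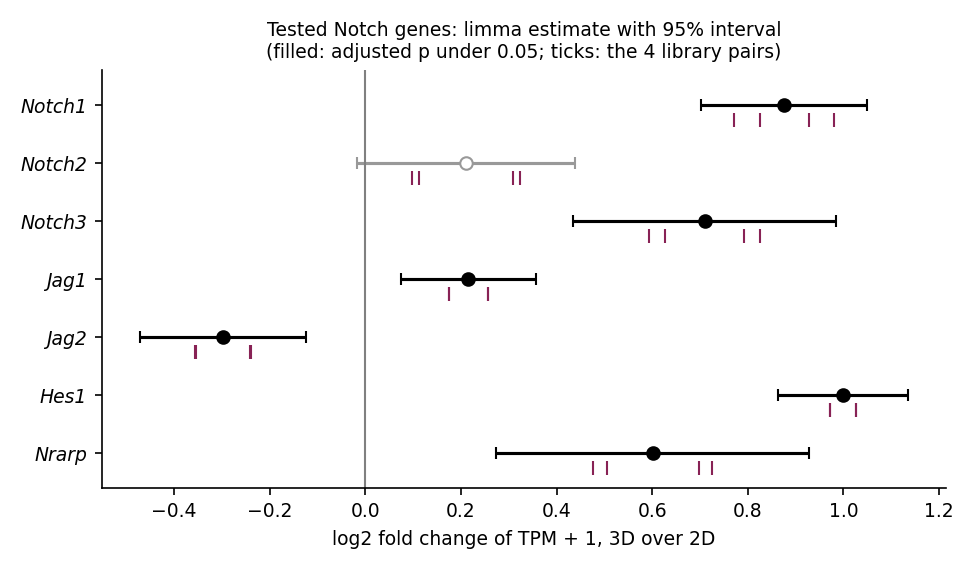
Log2 fold change of TPM + 1, 3D over 2D, with its 95% interval from limma for the 7 Notch genes tested, where ticks mark the difference of each of the 4 pairs of a 3D and a 2D library and the open point did not pass. The intervals of Hes1 (0.86 to 1.13), Notch1, Notch3, Nrarp and Jag1 lie above 0, that of Notch2 (-0.02 to 0.44) includes 0 and that of Jag2 (-0.47 to -0.12) lies below 0.

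By mean TPM in 2D the order was Notch1, Jag1, Notch2, Jag2, Hes1, Notch3, Nrarp, Hey1, Heyl and Dll1. In that order Notch2, Jag2 and Hes1 did not differ beyond their spread, and the libraries of Heyl and Dll1 overlapped. In 3D Hes1 moved from the fifth place to the second, and the other genes kept their order among themselves, with Heyl and Dll1 again overlapping.

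The other genes of the pathway were listed by role, 55 in all, and 48 were tested. Of these, 17 rose (35.4%) and 9 fell (18.8%), against 23.4% and 27.1% of all tested genes, and 22 did not pass, with a median log2 fold change of 0.13. Among the other receptors and ligands, 3 of 5 were tested and 1 fell. Notch4 averaged 10.9 TPM in 2D, against 8.92 TPM in 3D (log2 fold change -0.26, limma adjusted p = 0.0866). Notch4 passed with quantile normalization (log2 fold change -0.28, limma adjusted p = 0.0494) and without 2D replicate 1 (-0.37, limma adjusted p = 0.0495), and its log2 fold change was -0.16 without 2D replicate 2. The ligand Dll4 averaged 15.7 and 13.5 TPM (log2 fold change -0.20, limma adjusted p = 0.118). Dlk2, a Delta-like protein without the domain that activates Notch, fell from 79.4 to 68.4 TPM (log2 fold change -0.21, limma adjusted p = 0.0390), a call lost without 2D replicate 1 (limma adjusted p = 0.103), 2D replicate 2 (0.102) or 3D replicate 1 (0.159).

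Both tested members of the 4 further targets rose. Dtx1, a Deltex ubiquitin ligase, was at 4.02 and 4.69 TPM in 2D and at 10.5 and 10.4 TPM in 3D (log2 fold change 1.10, SE 0.10, limma adjusted p = 0.00163). Hes7 went from a mean of 1.51 to 2.54 TPM (log2 fold change 0.50, limma adjusted p = 0.0355), with limma adjusted p from 0.0514 to 0.144 when any 1 of the 4 libraries was left out. Hey2 was at 0.119 TPM or less.

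Of the 4 ubiquitin ligases that drive ligand endocytosis, 3 rose. Neurl1a, a Neuralized homologue, was at 51.8 and 56.8 TPM in 2D and at 105.7 and 103.4 TPM in 3D (log2 fold change 0.93, SE 0.06, limma adjusted p = 0.000727), and Mib2 went from a mean of 15.2 to 24.7 TPM (log2 fold change 0.67, limma adjusted p = 0.00521). Mib1 overlapped between cultures, at 45.6 and 37.1 TPM against 30.7 and 42.1 TPM (limma adjusted p = 0.422).

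Among the glycosyltransferases that modify Notch receptors, 7 of 9 were tested and 3 fell. Eogt was at 46.3 and 54.9 TPM in 2D and at 26.5 and 26.7 TPM in 3D (log2 fold change -0.90, SE 0.09, limma adjusted p = 0.00237). Gxylt1 fell from a mean of 78.8 to 49.2 TPM (log2 fold change -0.66, limma adjusted p = 0.0154), with limma adjusted p of 0.0738 without 3D replicate 1 and 0.0825 without 3D replicate 2. Lfng, the Lunatic fringe enzyme that shifts the ligand preference of Notch receptors, fell from 8.11 and 7.59 TPM to 4.16 and 4.28 TPM (log2 fold change -0.76, limma adjusted p = 0.00323), whereas Rfng, another fringe, was at 21.2 and 21.6 TPM (limma adjusted p = 0.789).

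Among the proteases that process the receptor, listed with the other subunits of gamma-secretase, 9 of 10 genes were tested, 5 rose and 2 fell. Psen2, a catalytic subunit of gamma-secretase, rose from 5.79 and 5.44 TPM to 9.88 and 9.87 TPM (log2 fold change 0.72, SE 0.08, limma adjusted p = 0.00305). Of the other subunits of the complex, Ncstn fell from a mean of 88.9 to 73.7 TPM (limma adjusted p = 0.0139) and Psenen rose from 111.5 to 147 TPM (limma adjusted p = 0.0255), and both calls were lost when either 3D library was left out (limma adjusted p from 0.0597 to 0.114). Adam10, which makes the cut that follows ligand binding, rose from 59.8 to 77.2 TPM (log2 fold change 0.36, limma adjusted p = 0.00521). Furin, which cleaves the precursor of the receptor, was at 111.4 and 67.9 TPM in 2D and at 169.8 and 185.9 TPM in 3D (log2 fold change 1.02, SE 0.24, limma adjusted p = 0.0232). Without 2D replicate 1 or 2D replicate 2 the log2 fold change of Furin was 1.37 or 0.67, and without 3D replicate 1 or 3D replicate 2 the limma adjusted p was 0.130 or 0.143.

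In the nuclear complex, 7 of 7 genes were tested, 1 rose and 1 fell. Rbpj, the DNA-binding partner of the Notch intracellular domain, was at 17.0 and 15.5 TPM in 2D and at 16.6 and 16.4 TPM in 3D (log2 fold change 0.02, SE 0.08, limma adjusted p = 0.836). The coactivators Maml1 (18.9 and 21.0 TPM, limma adjusted p = 0.127) and Ep300 (70.0 and 78.1 TPM, limma adjusted p = 0.262) did not pass. Maml3 rose from 0.641 to 1.76 TPM (log2 fold change 0.75, limma adjusted p = 0.00901), a gene that reached the 1 TPM filter only through the 3D libraries.

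Of the 8 corepressors, 3 rose and 1 fell. Ctbp1 rose from a mean of 195 to 221 TPM (log2 fold change 0.18, limma adjusted p = 0.0216), a call lost without 2D replicate 2 (limma adjusted p = 0.0595), 3D replicate 1 (0.138) or 3D replicate 2 (0.0686). Ncor1 overlapped between cultures (112.7 and 110.0 TPM, limma adjusted p = 0.758). Tle3, a Groucho-family corepressor recruited by HES proteins, rose from 2.91 and 3.21 TPM to 5.83 and 5.92 TPM (log2 fold change 0.76, limma adjusted p = 0.00420).

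Of the 8 genes listed for receptor turnover, 3 rose and 1 fell. Dtx3, a Deltex-family gene, had the largest log2 fold change of the 48 genes tested from the role lists. It was at 28.0 and 25.5 TPM in 2D and at 63.3 and 69.1 TPM in 3D (log2 fold change 1.28, SE 0.08, limma adjusted p = 0.000624). Dtx4 rose from a mean of 130 to 147 TPM (log2 fold change 0.17, limma adjusted p = 0.0294), a call lost without 2D replicate 1 (limma adjusted p = 0.0758), 3D replicate 1 (0.147) or 3D replicate 2 (0.115). Nedd4, a ubiquitin ligase, was at 168 and 293 TPM in 2D and at 360 and 354 TPM in 3D, and its log2 fold change of 0.69 did not pass (limma adjusted p = 0.0907). The 2D libraries of Nedd4 differed widely, and it passed when either of them was left out, with a log2 fold change of 0.29 without 2D replicate 1 (limma adjusted p = 0.0118) and of 1.09 without 2D replicate 2 (limma adjusted p = 0.00230).

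**Figure D4:**
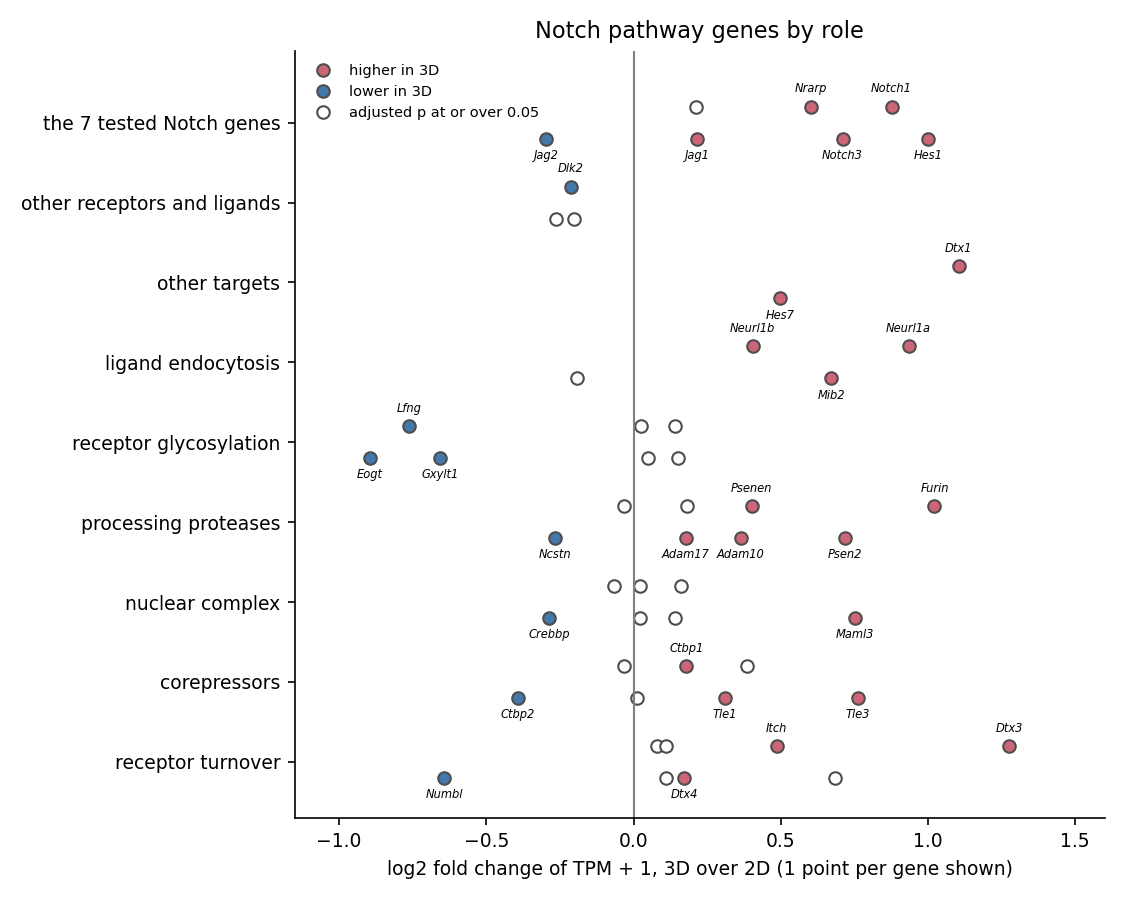
Log2 fold change of TPM + 1, 3D over 2D, with 1 point per gene, for the 7 tested Notch genes and other tested pathway genes grouped by role. Filled points pass a limma adjusted p of 0.05 (red higher and blue lower in 3D) and open points do not. Dtx3 (1.28), Dtx1 (1.10), Furin (1.02) and Hes1 (1.00) lie farthest to the right, and Eogt (-0.90) and Lfng (-0.76) farthest to the left.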

How the data were processed

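RNA-seq libraries of total RNA, prepared with a stranded mRNA kit, were made from AML12 cells in 2D (2 libraries) and 3D culture (2 libraries). Per the submitters' notes and the study's methods, the authors used cutadapt 1.8.3 and Trimmomatic 0.36 for trimming and HISAT2 2.0.5, set for stranded reads, for mapping to GRCm38, and quantified Ensembl release 93 genes with StringTie 1.3.4. The authors deposited 1 column of TPM per library, not pooled. TPM keeps no depth, so no counting interval was computed, and a value of 0 can be a failed estimate. The table also holds the authors' DESeq2 log2 fold change and p-value of the 2D and 3D comparison, which were not used. Since the values are TPM and not counts, the test was limma 3.58.1 in R 4.3.3 (lmFit, eBayes with trend and robust variance) on log2(TPM + 1) for genes whose TPM averaged at least 1, with a single term for culture, two-sided tests, Benjamini-Hochberg adjusted over all 14116 genes tested, and a threshold of 0.05. Fold changes on this scale understate the change of low genes. The limma fit was tried on simulated data with changes larger than those of Jag1 and Jag2, so this trial does not cover changes that small.

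The Notch genes, the role and marker lists, and the tests were chosen with earlier results of these data known. Named genes are the 10 Notch genes, the 3 highest of each role list by mean TPM, any listed gene past the threshold with a log2 fold change beyond 1 in either direction, the 2 highest markers of each list with those listed at 0 in all libraries, and genes overlapping a Notch gene. Adam10, Lfng, Maml3, Ncstn, Psen2 and Tle3, the neighbouring genes in the closing section, and the other markers were named after their values were seen. Positions are those of the deposited table, and overlaps were read from it. Overlapping genes may share reads where the strand does not separate them. Motifs were searched with Python 3.11.15 in RefSeq promoter sequences (GRCm38.p6). Ratios were compared with exact permutation tests in scipy 1.17.1, and figures were drawn with matplotlib 3.10.9. Alternatives numbered 14. They changed the pseudocount to 0.1 or 5, dropped the filter or raised it to 5 TPM, centred on medians or normalized quantiles. Others rescaled TPM after removing the 20 highest and the mitochondrial genes, or added a replicate block. Another held the prior variance constant and also dropped the robust option. The rest required an adjusted p under 0.01 or left out each library. Values of 2 listed pathway genes are not reported here, though both are in the counts. Genome structure libraries of the series were not used here.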

Additional observations from a re-analysis of the deposited data

How the results depend on the processing

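Under the 14 alternatives none of the 7 tested Notch genes changed direction. Notch1 (log2 fold change 0.80 to 0.95), Notch3 (0.47 to 0.81) and Hes1 (0.92 to 1.03) passed every one of them, with limma adjusted p up to 0.0105, 0.0379 and 0.00686. The 5 Notch genes higher in 3D became 3 at an adjusted p under 0.01, and 3 to 6 with a library left out, and the 1 lower became 0 at 0.01, where it had a limma adjusted p of 0.0199, and 0 to 1 with a library left out. A library left out leaves 1 in its culture, assumed to vary like the other culture. Jag1 also missed the threshold with no filter (adjusted p = 0.0676 by limma) and with a constant prior variance (0.0504).

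The median log2 fold change of the Notch genes was 0.77 with a pseudocount of 0.1, 0.31 with 5, 0.21 with no filter, which adds the 3 lowest genes, and 0.46 at a mean TPM of at least 5, which drops Nrarp. Of the other pathway genes, 9 were higher with no filter and 9 at an adjusted p under 0.01, and 9 to 15 with a library left out, while 4 were lower at 0.01 and 4 to 9 with a library left out. Their median ranged from 0.0586 to 0.18 with a library left out. Over all genes, 1995 were higher and 2228 lower at 0.01, and 2129 to 2957 were higher with a library left out. Among the 7 tested Notch genes and the 29 other pathway genes examined singly in this way, direction turned with a library left out for 4 that did not pass, Mib1 (-0.41 to 0.0307), Rfng (-0.0339 to 0.0868), Rbpj (-0.0401 to 0.0819) and Ncor1 (-0.13 to 0.0630). The causes were not tested beyond the genes or libraries that a setting removes.

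Same-numbered libraries did not deviate together (correlation -0.0549 over 14116 genes). With 1 replicate difference per culture this cannot show whether they were handled in pairs, and the labels do not say. With a replicate block 4 Notch genes were higher and 1 lower, Jag1 missing the threshold (limma adjusted p = 0.0611), and 12 other pathway genes were higher and 7 lower, against 2901 and 3347 of all genes. Dlk2, Hes7, Furin and Dtx4 missed it too. The precision is limited by the 2 libraries per culture, and the depth is unknown.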

Other observations

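In the genome neighbourhood of the Notch genes, chosen for description after the values were seen, 93 other tested genes lay within 250 kb of at least 1 of the 10, and 18 of them were higher (19.4%) and 24 lower (25.8%) in 3D, near the 23.4% and 27.1% of all tested genes. Around Notch1, 3 of 15 tested neighbours were higher and 4 lower, and around Nrarp, which lies on the same chromosome, 8 of 27 were higher and 8 lower. Around Heyl, which was itself too low to be tested, 4 of 5 tested neighbours were lower.

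The 2D libraries were not level with each other for the Notch genes. Replicate 2 was above replicate 1 for 6 of the 7 tested genes in 2D, against 59.5% of all tested genes, with Hes1 as the exception. In 3D it was above replicate 1 for 0 of the 7, against 45.0% of all tested genes. The 3D replicates were close, with log2 differences from 0.000775 (Jag1) to 0.0537 (Notch1), so this count includes near ties. These are values with no test.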
